A study of Mus musculus with 12 samples.

Results

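Expression of 10 genes of fatty acid handling was examined in 10T1/2 mesenchymal cells cultured on collagen hydrogels with or without collagen-bound aortic carboxypeptidase-like protein (ACLP). The genes were Angptl4, Pdk4, Plin2, Lpl, Fabp4, Cd36, Cpt1a, Acot2, Acsl1 and Acadl. They were chosen by name as genes that fatty acid-sensing receptors are known to control or that carry, activate, store or burn fatty acids, with earlier results of these data known. All 10 were found among the 56748 genes of the count table, and 9 were among the 16465 genes with enough counts to be tested. Cd36 was not tested.

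The peroxisome proliferator-activated receptors (PPARs) are nuclear receptors that bind fatty acids and their derivatives and pair with retinoid X receptors (RXRs) on DNA. PPARα is best known for the oxidation of fatty acids in liver and muscle, PPARδ for oxidation in many tissues, and PPARγ as the master regulator of the adipocyte, a fate open to mesenchymal progenitors such as 10T1/2 cells. Their target genes cover the path of a fatty acid, from release out of lipoproteins through uptake, activation to acyl-CoA and storage in droplets to transfer into mitochondria and β-oxidation.

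The cells were wild-type cells of the established mouse line 10T1/2, spelled CH310T1/2 and called mesenchymal stem cells in the sample records. In all 3 groups they spent 1 h in suspension under serum starvation and were then cultured for 18 h on gels of 12 kPa stiffness that carried type I collagen (0.05 mg/ml). The sample records place the serum level of 0.5% at the suspension, while the study's methods give suspension without serum and 0.5% on the gels. The collagen was polymerized without ACLP (col1), with 30 nM recombinant ACLP (col1-ACLP), or with 30 nM ACLP for cells treated with SB431542, an inhibitor of the TGFβ receptor kinase ALK5 (col1-ACLP+SB). Poly(A) RNA was sequenced from 4 libraries per group, which the study describes as biological replicates. All 12 libraries come from 1 cell line, and no group received SB431542 on collagen without ACLP, so an action of the inhibitor that does not involve ACLP cannot be told apart here.

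Counts per library ran from 29246154 to 52201922. Col1 replicate 2 stood apart from the other 11 libraries, at -86.7 on the first principal component (19.5% of the variance) against -11.1 to -8.97 for the other col1 libraries. Calls that change without it are given below for the tested genes of the 10 and for called pathway genes. Uncalled pathway genes were not read without it. The 7 mesenchymal markers (Pdgfra, Pdgfrb, Thy1, Col1a1, Col1a2, Prrx1 and Ly6a) were all tested, with a summed level from 20550 to 21250 CPM (counts scaled to a common library total) on col1, from 30620 to 38570 on col1-ACLP and from 27510 to 32610 on col1-ACLP+SB. Most of that sum is Col1a1 (11730 to 24440 CPM) and Col1a2 (7195 to 12760), and the list did not move as one. On col1-ACLP these collagen genes rose (log2 fold change 0.82 and 0.65), Pdgfra fell (-0.76, adjusted p = 1.98e-10 by edgeR) and the other 4 lay between -0.16 and 0.049. None of the 6 markers of mature adipocytes (Adipoq, Plin1, Cidec, Lep, Retn and Pck1) had enough counts to be tested. Their sum reached at most 0.403 CPM in any library, and Pck1 was at 0 in all 12. Of the other lists, 3 of 5 macrophage markers were tested (summed level from 6.17 to 12.8 CPM over the 12 libraries, with Adgre1 at 0), and 1 gene each of 5 endothelial, 4 epithelial and 4 skeletal muscle markers. Most of the macrophage sum is Cd68 (5.315 to 10.04 CPM), while Lyz2, Csf1r and Ptprc each reached at most 2.014 CPM. The summed muscle markers, of which nearly all counts are of Acta1 (326 counts, 2 of Ckm, and Myod1 and Myog at 0), ran from 0 to 0.581 CPM on col1, 0.774 to 2.16 on col1-ACLP and 0.456 to 0.940 on col1-ACLP+SB. The summed endothelial markers ran from 5.06 to 8.30 CPM, from 7.52 to 9.85 and from 4.50 to 6.41 in the same order, without overlap between the groups with ACLP. Tek (3.96 to 9.57 CPM) carries that sum, and Pecam1, Cdh5, Kdr and Emcn each reached at most 0.309 CPM. The epithelial sum overlapped between all groups, within 1.88 to 4.04 CPM. The part of these marker differences in the results below was not tested.

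To show the DNA letters that bear on PPAR control, the region from 5000 bases before to 5000 bases after each start site was searched on both strands for the PPAR–RXR element. This element is a direct repeat of AGGTCA with 1 base between the copies, AGGTCANAGGTCA. Of 12663 tested protein-coding genes, 2.31% held an exact copy and 20.9% a copy with at most 1 mismatch, and none of the 10 genes studied here held either. With 2 mismatches allowed, 9 of the 10 held a match (not Acsl1), but so did 77.5% of all genes searched. The matches below are of that kind. They are shown for the genes whose levels differed between groups, and for Plin2, as descriptions of the sequence and not as binding sites. Both matches of Angptl4 are printed, and for each other gene only the match closest to the start site. Each is read 5′ to 3′ on the strand named, in build GRCm39, with the 13 positions aligned to the element in capitals, 2 of which differ from it, and 8 bases on each side in lower case.

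Angptl4, intron, chr17:33998263-33998291, plus strand: gggaaagtAGGAGAAAGGTCActggggga
Angptl4, upstream, chr17:34003149-34003177, minus strand: aactgttgAGGTCAGAGGATAattttggg
Pdk4, upstream, chr6:5500137-5500165, plus strand: ggagagatAGGTCAGTGATCAgggacttc
Fabp4, intron, chr3:10271533-10271561, plus strand: taaaatctAAGTCAAAGGCCAggcctcac
Cpt1a, upstream, chr19:3372368-3372396, minus strand: agagtcgcAGCTCTGAGGTCAagcacgcc
Acot2, upstream, chr12:84034153-84034181, plus strand: tggaatgtAGGTAAAGGGTCAcacagccc
Plin2, upstream, chr4:86588501-86588529, plus strand: tctgacttAGGTCAGGGGTCCtgaaagct

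Angptl4, Pdk4, Fabp4 and Plin2 lie on the minus strand of the genome, and Cpt1a and Acot2 on the plus strand. Counted from the start site of the annotated canonical transcript, the matches begin at +2521 and -2365 in Angptl4, -3827 in Pdk4, +2184 in Fabp4, -895 in Cpt1a, -267 in Acot2 and -62 in Plin2. The Cpt1a match lies before the canonical start but inside the gene interval that the count table gives, which begins at position 3372334. Fabp4 held 2 more matches, Plin2 2 more and Acot2 2 more, farther from the start site. Lpl held 2, Cd36 1 and Acadl 3.

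Against the col1 libraries, 2 of the 9 tested genes fell on col1-ACLP (Angptl4 and Pdk4) and 1 rose (Acot2). Pdk4 dropped to 43.2% of its col1 level and Angptl4 to 56.2%, and Acot2 rose 1.65-fold. In bulk RNA a lower level in each cell and fewer cells that express the gene cannot be told apart. Calls required a Benjamini-Hochberg adjusted p-value below 0.05 in the quasi-likelihood test of edgeR together with a log2 fold change of more than 0.58 up or down. Over all 16465 genes 2.36% were called lower and 2.61% higher in this comparison. By the adjusted p-value alone 4 of the 9 changed (Cpt1a in addition, lower), against 17.9% of all genes, and in those 4 the col1-ACLP libraries did not overlap the col1 libraries, against 21.2% of all genes. The median log2 fold change of the 9 genes was -0.39, beside -0.0099 over all genes tested. That middle value is the estimate of Lpl, a gene of low counts whose confidence interval ran from -1.39 to 0.62. The median is therefore no firm measure of a shift of the 9 genes. Of their estimates, 6 were below 0.

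On col1-ACLP+SB, Pdk4 and Fabp4 fell relative to col1 and Acot2 rose, the same number of calls with Fabp4 in place of Angptl4. The background shares were 1.01% called lower and 1.27% called higher. By the adjusted p-value alone 5 of the 9 changed (Angptl4 and Cpt1a in addition, both lower), against 9.13% of all genes. Those 5 were also the genes whose libraries did not overlap those of col1, against 13% of all genes. The median of the 9 was -0.43, beside 0.0046 over all genes. Both of these comparisons use the same 4 col1 libraries, so their values for a gene are set side by side and are not independent.

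Between col1-ACLP+SB and col1-ACLP, the comparison that addresses the ALK5 inhibitor, none of the 9 genes passed the threshold, and none passed the adjusted p-value alone. At an unadjusted p under 0.05 there were 2, Angptl4 and Plin2 (2111 of 16465 over all genes), and these were also the 2 whose libraries did not overlap, against 8.17% of all genes. DESeq2 called none of the 9 either, but by its adjusted p-value alone Angptl4 passed (log2 fold change 0.2985, adjusted p = 0.0296). The background was 0.085% called higher, 0.0425% called lower and 1.48% past the adjusted p-value alone. The split of those calls depended on the rule, with 14 genes higher and 7 lower by the full threshold (18 and 5 with library size alone) and 94 higher and 149 lower by the adjusted p-value alone. The median of the 9 was -0.085, beside 0.0049 over all genes.

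**Figure D1:**
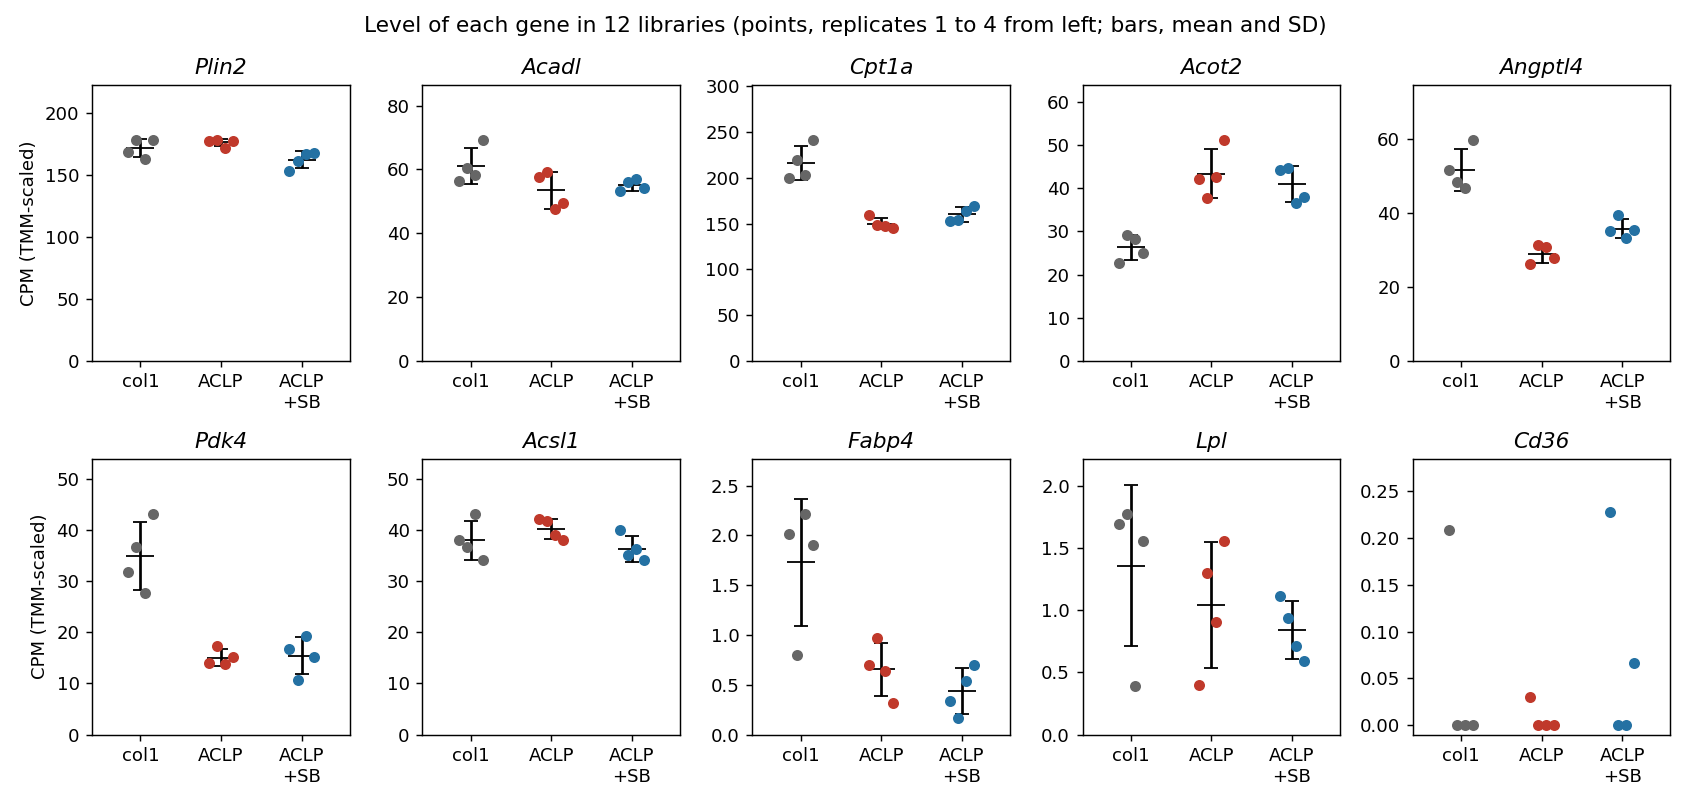
Level of the 10 genes in CPM with TMM scaling (y axis, linear, each panel with its own range) in the 4 libraries of col1, col1-ACLP and col1-ACLP+SB (x axis). Points are libraries and bars the mean and SD, left out for Cd36, which is at 0 in 8 of 12 libraries. Angptl4, Pdk4 and Cpt1a sit lower and Acot2 higher in all 8 libraries with ACLP than in any col1 library.

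Angptl4 (ENSMUSG00000002289, chr17:33992724-34000804 in GRCm39) encodes a secreted inhibitor of lipoprotein lipase and is among the best known targets of all PPARs. Its 4 col1 libraries read 51.7, 48.5, 46.8 and 59.8 CPM. On col1-ACLP the libraries read 26.2, 31.3, 31.0 and 27.9 CPM, all below the lowest col1 library. On col1-ACLP+SB they read 35.2, 39.6, 33.3 and 35.3 CPM, which lies between the other groups without overlapping either. The means were 51.7 ± 5.77 CPM, 29.1 ± 2.47 and 35.8 ± 2.70 (SD, n = 4 each). The log2 fold change was -0.83 (SE 0.0854, adjusted p = 4.84e-08) on col1-ACLP and -0.53 (SE 0.0843, adjusted p = 7.06e-05) on col1-ACLP+SB, short of the 0.58 needed for a call. Without replicate 2 of col1-ACLP+SB the latter was -0.5812 and passed. The difference between col1-ACLP+SB and col1-ACLP was 0.30 (95% interval 0.12 to 0.48, adjusted p = 0.0821). Over the 20 alternative settings its adjusted p ran from 0.0251 to 0.253. It was under 0.05 in 2 of them, among them DESeq2 (0.0296).

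Pdk4 (ENSMUSG00000019577, chr6:5483351-5496309) encodes a kinase that switches off the pyruvate dehydrogenase complex and so spares glucose when fatty acids are burned. The gene was read at 31.8, 36.7, 27.8 and 43.1 CPM on col1. On col1-ACLP the levels were 14.0, 17.3, 13.9 and 15.1 CPM. With SB431542 they were 16.8, 10.7, 19.2 and 15.1 CPM, so that all 8 libraries with ACLP lay below the lowest col1 library and the libraries with and without the inhibitor were interleaved. The group means were 34.9 ± 6.62, 15.0 ± 1.59 and 15.4 ± 3.60 CPM (SD, n = 4). The log2 fold change was -1.21 (SE 0.142, adjusted p = 4.5e-07) on col1-ACLP and -1.17 (SE 0.142, adjusted p = 1.43e-06) on col1-ACLP+SB. Between the groups with ACLP the difference was 0.044, with a 95% interval from -0.25 to 0.34 (adjusted p = 0.956), which leaves room for a change of up to about that size in either direction.

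Acot2 (ENSMUSG00000021226, chr12:84034635-84040647), a mitochondrial thioesterase that splits long-chain acyl-CoA back into fatty acid and CoA, moved the other way. Col1 libraries read 22.8, 29.3, 28.1 and 24.9 CPM. On col1-ACLP the values were 42.1, 37.7, 42.7 and 51.2 CPM, and with SB431542 they were 44.2, 44.8, 36.6 and 38.0 CPM. Every library with ACLP was above the highest col1 library. The means were 26.3 ± 2.98, 43.4 ± 5.64 and 40.9 ± 4.18 CPM. The rise over col1 on the log2 scale was 0.72 (SE 0.0972, adjusted p = 3.5e-06) and 0.64 (SE 0.0970, adjusted p = 4e-05). Without col1 replicate 1 the second value was 0.5758, just short of a call. The groups with and without SB431542 differed by -0.085 (95% interval -0.28 to 0.11, adjusted p = 0.81). Reads of Acot2 can be shared with its near-identical neighbour Acot1. Of the words of 100 bases in the Acot2 transcript, 15.6% also occur in Acot1, and how the authors' counting treated such reads is not given in the sources used here. Acot1 itself held 0 to 22 counts per library, at most 0.672 CPM.

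Cpt1a (ENSMUSG00000024900, chr19:3372334-3435733) encodes the carnitine palmitoyltransferase of the outer mitochondrial membrane, the gate through which long-chain fatty acids enter β-oxidation. The levels on col1 were 199.6, 219.7, 203.6 and 241.2 CPM. They were 159.0, 148.6, 146.9 and 145.5 CPM on col1-ACLP and 153.0, 154.0, 163.8 and 169.3 CPM on col1-ACLP+SB. No library with ACLP reached the lowest col1 library. The log2 fold change was -0.53 (SE 0.0577, adjusted p = 1.41e-07) on col1-ACLP, 69.4% of the col1 level, and -0.43 (SE 0.0576, adjusted p = 5.95e-06) on col1-ACLP+SB, 74.1% of it. Both passed the adjusted p-value and neither passed the fold threshold. The difference between the groups with ACLP was 0.093 (95% interval -0.026 to 0.21, adjusted p = 0.563).

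Acadl (ENSMUSG00000026003, chr1:66869998-66902436), the long-chain acyl-CoA dehydrogenase that takes the first step of mitochondrial β-oxidation, did not pass the test. It was read at 56.3, 60.5, 58.4 and 69.2 CPM on col1, at 57.5, 59.4, 47.6 and 49.5 on col1-ACLP and at 53.1, 56.2, 56.9 and 54.2 on col1-ACLP+SB, with overlap between all groups. Its log2 fold change was -0.19 (95% interval -0.35 to -0.034, adjusted p = 0.0891) on col1-ACLP and -0.15 (-0.31 to 0.0079, adjusted p = 0.283) on col1-ACLP+SB.

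Plin2 (ENSMUSG00000028494, chr4:86566623-86588297), which coats lipid droplets in most cell types, was the most even of the 10. It was read at 168.5, 178.0, 163.1 and 178.0 CPM on col1, at 177.3, 178.0, 171.9 and 177.3 on col1-ACLP and at 153.1, 161.2, 166.4 and 168.0 on col1-ACLP+SB. The log2 difference from col1 was 0.035 (95% interval -0.065 to 0.13, adjusted p = 0.711) on col1-ACLP, and turned to -0.01525 when library size alone set the scale. Against col1-ACLP, the 4 libraries with SB431542 were all lower, by 0.12 on the log2 scale (log2 fold change -0.12, 95% interval -0.22 to -0.019), at an adjusted p of 0.267. Acsl1 (ENSMUSG00000018796, chr8:46924074-46989088), which joins long-chain fatty acids to CoA, ranged from 34.1 to 43.2 CPM over all 12 libraries, and the groups overlapped. Its log2 fold change was 0.083 (95% interval -0.079 to 0.25) on col1-ACLP and -0.064 (-0.23 to 0.099) on col1-ACLP+SB.

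**Figure D2:**
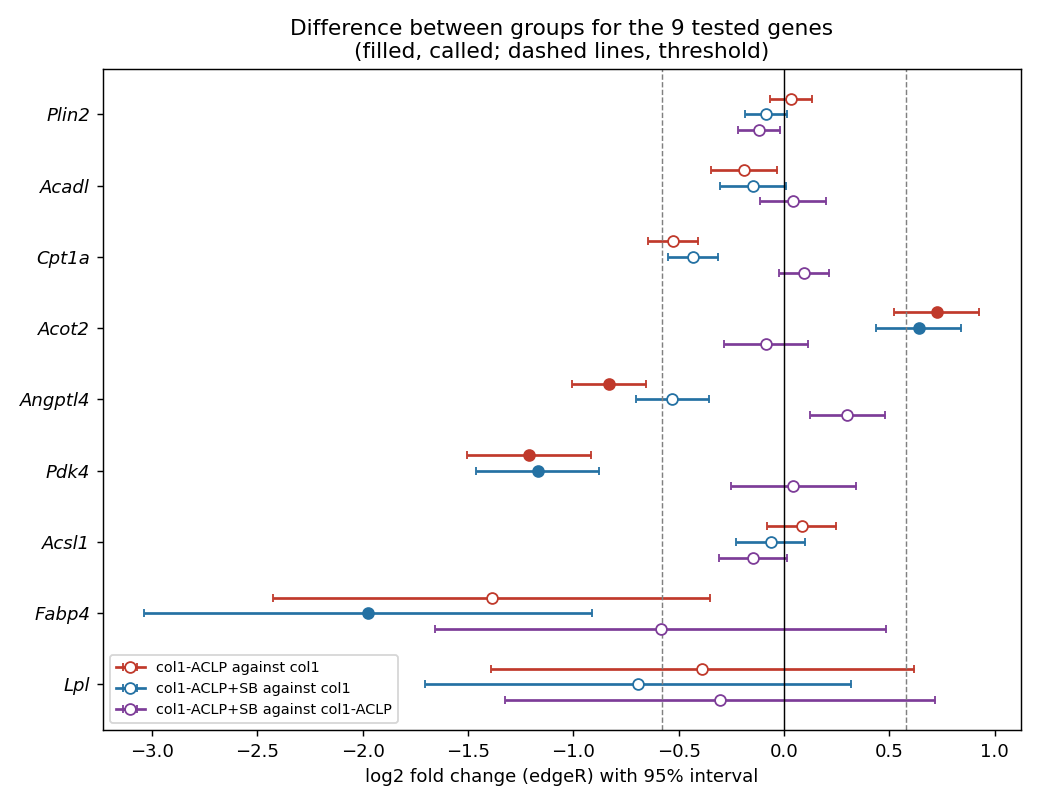
Log2 fold change with its 95% interval (x axis) for the 9 tested genes (y axis, ordered by level per length) in col1-ACLP against col1 (red), col1-ACLP+SB against col1 (blue) and col1-ACLP+SB against col1-ACLP (purple). Filled points were called and the dashed lines mark 0.58. The intervals of Fabp4 and Lpl are the widest, and no purple point is filled.

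Fabp4, Lpl and Cd36, which are abundant in adipocytes, were the lowest of the 10, and of these Cd36 lay near the limit of detection. Fabp4 (ENSMUSG00000062515, chr3:10269148-10273636), the fatty acid-binding protein of adipocytes and a PPARγ target, held 77, 30, 73 and 82 counts on col1. It held 23, 35, 19 and 9 counts on col1-ACLP and 12, 5, 28 and 21 on col1-ACLP+SB. In CPM these were 2.01, 0.794, 2.22 and 1.91, then 0.703, 0.968, 0.635 and 0.319, then 0.342, 0.168, 0.540 and 0.695. The low col1 library is replicate 2, the one that stood apart, and it alone overlapped the col1-ACLP libraries. Fabp4 fell on col1-ACLP+SB (log2 fold change -1.97, SE 0.515, adjusted p = 0.0133, 25.5% of the col1 level). On col1-ACLP the estimate was -1.39 (SE 0.503, adjusted p = 0.0577). Over the 20 alternatives that adjusted p ran from 0.0205 to 0.16, and it passed in 5 of them, among them DESeq2 (0.0205) and the fit without col1 replicate 2 (log2 fold change -1.623, adjusted p = 0.0205). The call on col1-ACLP+SB was lost without col1 replicate 3 (adjusted p = 0.0501). The difference between the groups with ACLP was -0.59, with an interval from -1.66 to 0.49, so these groups were not shown to differ.

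Lpl (ENSMUSG00000015568, chr8:69333143-69360100), the lipase that frees fatty acids from lipoproteins at the vessel wall, held 65, 67, 13 and 67 counts on col1, 13, 47, 27 and 44 on col1-ACLP and 39, 28, 37 and 18 on col1-ACLP+SB. In CPM it ranged from 0.395 to 1.77, from 0.397 to 1.56 and from 0.595 to 1.11, and all groups overlapped. The log2 fold change was -0.39 (95% interval -1.39 to 0.62, adjusted p = 0.679) on col1-ACLP and -0.69 (-1.70 to 0.32, adjusted p = 0.489) on col1-ACLP+SB. Both intervals reach from a fall to a rise. Cd36 (ENSMUSG00000002944, chr5:17986688-18093799), a scavenger receptor that takes up long-chain fatty acids, held 8, 0, 0 and 0 counts on col1, 1, 0, 0 and 0 on col1-ACLP and 8, 0, 0 and 2 on col1-ACLP+SB. In a library of these depths a count of 0 allows up to 3 counts, from 0.0579 to 0.106 CPM, for counting error only. No fold change is given for it.

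In the annotation, 6 of the 10 genes share their interval with other gene models. On the other strand these are noncoding or still unclassified models: Gm66293 for Fabp4, Gm58963 for Cpt1a, Gm64236 for Lpl, Gm72030 for Cd36, Gm45244 and Gm64266 for Acsl1, and Gm27934 for Acadl. Acadl also holds the pseudogene Gm15793 on its own strand. Angptl4, Pdk4, Plin2 and Acot2 overlap none.

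Per length of gene, the 10 genes fell into an upper and a lower set. As the mean over 12 libraries in FPKM (CPM divided by gene length in kilobases, computed from the CPM and the gene length in the count table), Plin2 was at 48.4, Acadl at 28.2, Cpt1a at 22.9, Acot2 at 16.8, Angptl4 at 11.0, Pdk4 at 6.21 and Acsl1 at 3.64. Fabp4 followed at 0.210, Lpl at 0.103 and Cd36 at 0.0124. The order differed by group: on col1 Angptl4 (14.6 FPKM) was above Acot2 (12.0), and on col1-ACLP Acot2 (19.8) was level with Cpt1a (19.6). The range of Plin2 over the libraries (43.6 to 50.7 FPKM) stood clear of Acadl (23.7 to 34.5). Each of the pairs Acadl and Cpt1a, Cpt1a and Acot2, Acot2 and Angptl4, Angptl4 and Pdk4, Pdk4 and Acsl1, Fabp4 and Lpl, and Lpl and Cd36 overlapped in range, while Acsl1 (3.25 to 4.12) and Fabp4 (0.0374 to 0.494) did not. The length that the table gives for Fabp4, 4489 bases, equals its whole genomic span, against 1360 bases for its canonical transcript, so its FPKM is low for its counts. With the canonical length it would be at 0.692, still below Acsl1. On canonical lengths the neighbours Acadl (22.6) and Cpt1a (26.6) would change places, as would Pdk4 (5.80) and Acsl1 (6.61).

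Over the 12 libraries the log2 CPM of Pdk4 and Cpt1a had a Pearson r of 0.926, and Acot2 ran against Pdk4 (-0.896), Cpt1a (-0.895), Fabp4 (-0.869) and Angptl4 (-0.864). These values contain the difference between groups. After the group means were removed, r was 0.518 for Pdk4 and Cpt1a, 0.0497 for Angptl4 and Pdk4, -0.802 for Fabp4 and Acot2, -0.369 for Pdk4 and Acot2, -0.241 for Cpt1a and Acot2, -0.212 for Angptl4 and Acot2, 0.756 for Plin2 and Cpt1a, -0.751 for Plin2 and Acsl1 and 0.678 for Cpt1a and Acadl. They describe 12 libraries that share 1 scaling, and carry no test.

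For the 4 genes called in a comparison, the tested protein-coding genes with a mean of at least 10 CPM and the most similar pattern over the 12 libraries were listed by Pearson r. Those nearest to Angptl4 were Nbl1 (0.974), Slc9a3r1 (0.965) and Tpm2 (0.964). Nearest to Pdk4 were S1pr1 (0.979), Nrp1 (0.968) and Creb5 (0.966). Fabp4 was nearest to Pip4p2 (0.960), Hacd4 (0.957) and the catalase gene Cat (0.951), and Acot2 to Slc1a4 (0.965), Trib3 (0.958) and P3h1 (0.957). None of these 12 is another of the 10 genes. The highest r among 8876 or 8877 genes compared describes likeness only.

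The wider pathway was read from 9 lists with 138 further genes, of which 102 were tested. On col1-ACLP 4 of the 102 were called higher and 7 lower, 10.8% in all, beside 2.61% and 2.36% of all genes. On col1-ACLP+SB 2 were higher and 4 lower, 5.88% in all, beside 1.27% and 1.01%, and between the groups with ACLP none was called. By adjusted p-value alone the numbers were 31, 20 and 3, beside 17.9%, 9.13% and 1.48% of all genes. The median log2 fold change of the 102 was -0.040, -0.047 and -0.0058 in the 3 comparisons, near the medians of all genes.

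Among the receptors and their partners (11 of 14 tested), Pparg fell and the others were not called. Pparg was read at 27.6, 28.2, 25.6 and 26.7 CPM on col1, at 17.0, 16.7, 19.6 and 16.8 on col1-ACLP and at 13.9, 15.5, 17.8 and 17.7 on col1-ACLP+SB. All 8 libraries with ACLP were below all 4 of col1. The log2 fold change was -0.63 (SE 0.0975, adjusted p = 2.95e-05) and -0.74 (SE 0.0975, adjusted p = 5.73e-06), and the difference between the groups with ACLP was -0.11 (adjusted p = 0.743). Ppard, the other PPAR with enough counts (named for that, not by the rule for the list), had group means of 63.5, 63.5 and 62.9 CPM. Ppara was at 0 in 11 of 12 libraries and was not tested. The members of highest level per length that were not called were Rxrb, at 0.0022 and 0.13 on the log2 scale against col1, and the corepressor Ncor1, at -0.016 and -0.079 (adjusted p = 0.894 and 0.437). Rxra, named after its value was seen, was at 0.28 (adjusted p = 0.000249) and 0.21 (adjusted p = 0.00962), with all libraries above those of col1, and was not called.

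In the lipoprotein list (6 of 9 tested) the lipoprotein receptor gene Vldlr rose and Apoe, which carries lipids out of cells, fell. Vldlr went from 47.9 ± 2.59 CPM on col1 to 97.1 ± 5.87 on col1-ACLP and, with SB431542, 83.4 ± 1.74, with log2 fold changes of 1.02 and 0.80 (adjusted p = 1.98e-12 and 4.14e-10). Apoe was read at 7.42 ± 1.83, 3.76 ± 0.464 and 4.49 ± 0.814 CPM, a log2 fold change of -0.98 (adjusted p = 0.000736) and -0.73 (adjusted p = 0.0164). The second of these was lost without col1 replicate 2 (adjusted p = 0.0738) and without col1-ACLP+SB replicate 3 (adjusted p = 0.0635). The genes Lrp1 and Lipa, of highest level here, were at 0.065 and -0.057 on col1-ACLP.

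For uptake and binding (5 of 12 tested), Slc27a1, a fatty acid transport protein, had the lowest ratio to col1 of the called pathway genes. It was read at 10.1 ± 1.36 CPM on col1, 3.73 ± 1.11 on col1-ACLP and, with SB431542, 4.08 ± 0.157, a log2 fold change of -1.45 (adjusted p = 1.72e-06) and -1.31 (adjusted p = 1.24e-05). Its interval overlaps that of Nxnl1 on the other strand. Fabp5, a fatty acid-binding protein found in many cell types, rose on col1-ACLP from 14.5 ± 2.20 to 24.2 ± 2.07 CPM (log2 fold change 0.73, adjusted p = 0.000105). On col1-ACLP+SB it was at 17.9 ± 3.45 CPM (log2 fold change 0.30, adjusted p = 0.162), and the difference between the groups with ACLP was -0.43 (adjusted p = 0.0852). Dbi was at -0.13 and -0.14 on the log2 scale and Slc27a4 at 0.13 and 0.062.

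Among acyl-CoA synthetases and thioesterases (11 of 17 tested), Acsl3, a synthetase of the endoplasmic reticulum and lipid droplets, was just past the threshold on col1-ACLP (log2 fold change 0.58, adjusted p = 2.14e-05) and at 0.42 (adjusted p = 0.00198) on col1-ACLP+SB. It lost the call without col1 replicate 1, col1 replicate 4 or col1-ACLP replicate 4 (0.5182 to 0.5541) and with library size alone (0.5334), and it shares its interval with Utp14b on the same strand. Acot7 was at 0.24 and 0.20 and Acot9 at 0.24 and 0.26, past the adjusted p-value in both comparisons with col1 and not called.

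In mitochondrial β-oxidation and ketogenesis (23 of 23 tested) 7 genes passed the adjusted p-value on col1-ACLP, all of them lower (beside 17.9% of all genes in either direction), and 3 on col1-ACLP+SB, also lower (beside 9.13%). The latter share is near the background. Of these only Acaa2, the thiolase of the last step, passed the fold threshold. It was read at 136.7 ± 5.10 CPM on col1, 91.3 ± 6.44 on col1-ACLP and, with SB431542, 101.2 ± 4.23 (log2 fold change -0.58, adjusted p = 1.82e-08, and -0.43, adjusted p = 3.94e-06). It lay so near the threshold that it lost the call without col1 replicate 2 or 4 or col1-ACLP replicate 3 or 4 (-0.569 to -0.5445), and with no filter on low counts (-0.578). Acadm, the medium-chain dehydrogenase, was at -0.54 (adjusted p = 7.73e-07) and is named after its value was seen. Etfa, which passes electrons on from the dehydrogenases, was at -0.22 (adjusted p = 0.0109) on col1-ACLP, and Hadha at -0.054 (adjusted p = 0.548). The median of the list was -0.17 on col1-ACLP, and with SB431542 -0.067.

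Peroxisomal β-oxidation (17 of 17 tested) held no called gene. By adjusted p-value 5 of its genes were lower and 1 higher on col1-ACLP (beside 17.9% of all genes), and 3 were lower on col1-ACLP+SB (beside 9.13%), with medians of -0.16 and -0.13. Ech1, an isomerase of unsaturated acyl-CoA, was at -0.57 (adjusted p = 3.39e-08), just short of the fold threshold, and -0.34 (adjusted p = 0.00015). It was higher with SB431542 than without by 0.23 (adjusted p = 0.0396), and was not recomputed under the alternative settings. Cat, which breaks down the hydrogen peroxide this pathway makes, was at -0.16 (adjusted p = 0.0371) and -0.18 (adjusted p = 0.0319).

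In the list of droplet coat, storage and lipolysis (12 of 18 tested) Plin4 and Lipe fell. Plin4, a perilipin of nascent droplets, was read at 344.3, 326.2, 377.0 and 346.4 CPM on col1, at 174.9, 170.2, 166.2 and 151.6 on col1-ACLP and at 198.4, 188.3, 213.9 and 199.3 on col1-ACLP+SB. No pair of groups overlapped. Its log2 fold change was -1.07 (SE 0.0551, adjusted p = 1.96e-13) and -0.80 (SE 0.0547, adjusted p = 8.62e-11), and it was higher with SB431542 than without by 0.27 (adjusted p = 0.00915), short of the fold threshold. It overlaps Hdgfl2 on the other strand. Lipe, the hormone-sensitive lipase, fell from 14.2 ± 1.87 to 8.29 ± 0.998 CPM on col1-ACLP (log2 fold change -0.78, adjusted p = 0.000125) and was at 11.0 ± 1.48 on col1-ACLP+SB (-0.37, adjusted p = 0.0878). G0s2, an inhibitor of the lipase Pnpla2, was at 0.45 in both comparisons (adjusted p = 0.000226 and 0.000355), and Plin3 at -0.039 and -0.067. Plin1, Cidea and Cidec, which mark large droplets of fat cells, had too few counts to be tested.

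Around Pdk4, the list of pyruvate dehydrogenase kinases and complex subunits (12 of 12 tested) held 1 called gene, Pdk1, and it rose. Pdk1, another kinase of the same complex, went from 40.4 ± 2.69 CPM on col1 to 71.0 ± 2.09 on col1-ACLP and, with SB431542, 78.6 ± 6.00. Its log2 fold change was 0.81 (adjusted p = 8.5e-10) and 0.96 (adjusted p = 1.11e-10), opposite in sign to that of Pdk4, and all 8 libraries with ACLP were above all of col1. The subunits Pdha1 and Dld were at 0.060 and 0.14 on col1-ACLP (adjusted p = 0.505 and 0.079).

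Of 16 other PPAR targets 5 were tested, and Slc25a42, the mitochondrial carrier of CoA, fell on col1-ACLP. It was read at 132.0 ± 9.31, 78.0 ± 3.19 and 92.1 ± 3.33 CPM, a log2 fold change of -0.76 (adjusted p = 1.9e-10) and -0.52 (adjusted p = 3.1e-07). With SB431542 it was higher than without by 0.24 (adjusted p = 0.0316). It overlaps Tmem161a on the other strand. Gk was at 0.17 and 0.16 (adjusted p = 0.615 and 0.714) and Gpd1, at 0.575 FPKM on average, at -1.02 and -0.44 (adjusted p = 0.0538 and 0.569).

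**Figure D3:**
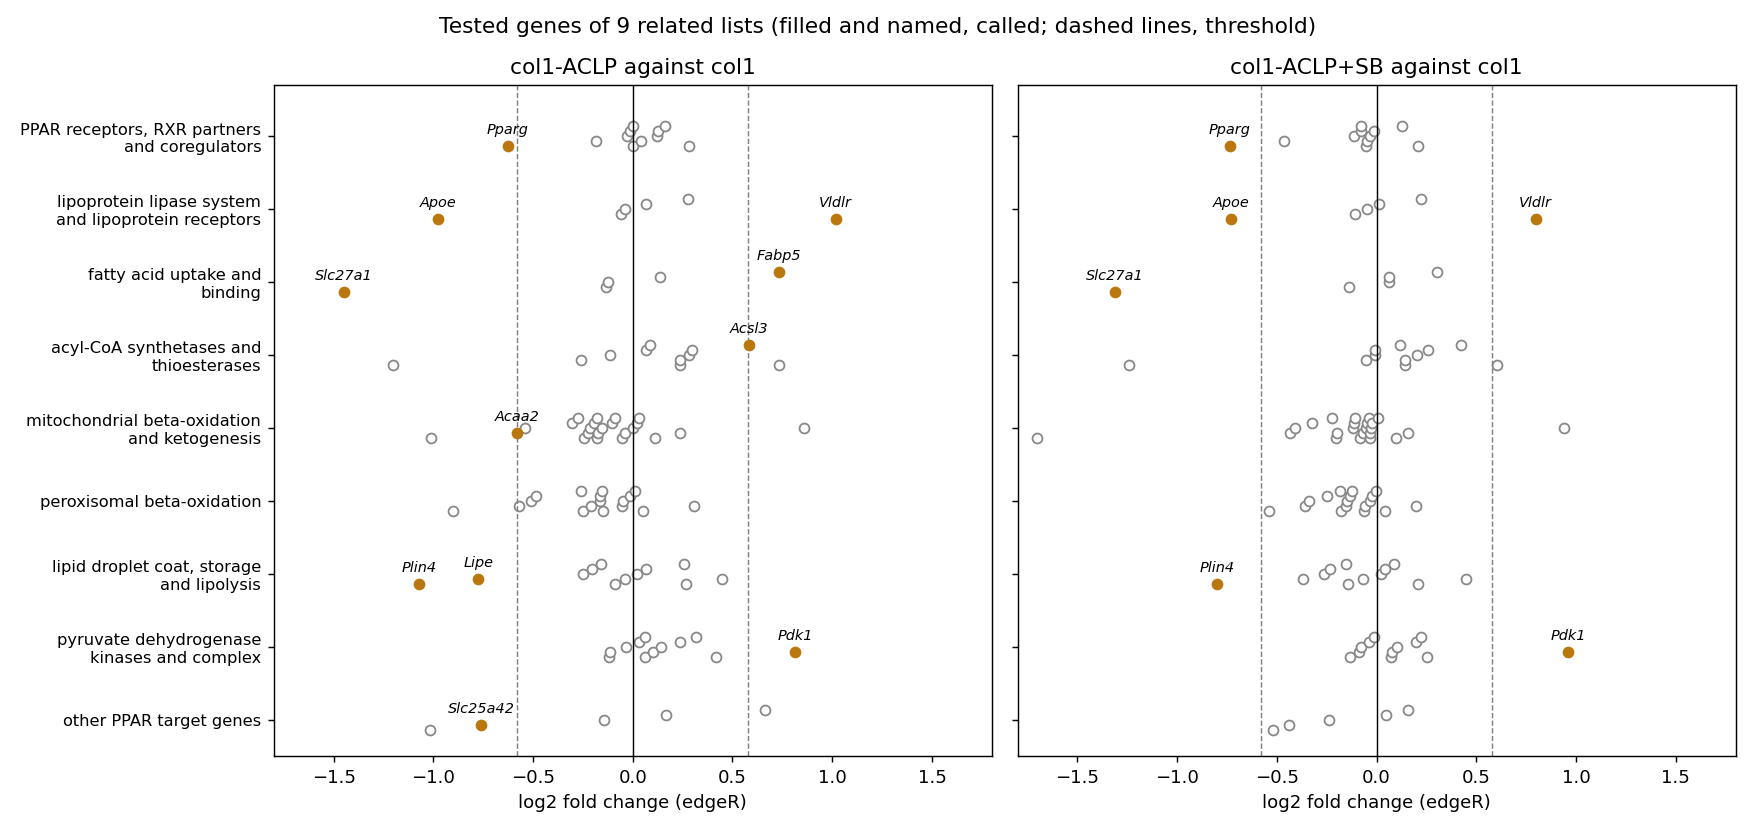
Log2 fold change (x axis) of the 102 tested pathway genes in 9 lists (y axis) on col1-ACLP (left) and col1-ACLP+SB (right), each against col1. Each point is 1 gene, filled and named where called, and the dashed lines mark 0.58. Named points lie on both sides of 0, with 4 higher and 7 lower on the left and 2 higher and 4 lower on the right.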

How the data were processed

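RNA-seq counts of 12 libraries were used. The authors mapped reads with HISAT2 and deposited raw counts per gene, without normalization. The sample records name mm10 and the methods GRCm39. The intervals of 16367 tested genes shared with GENCODE vM39 all overlapped their GRCm39 intervals, so GRCm39 was used. The counting tool and its strand setting are not given in the sources used here, so reads on overlapping genes cannot be told apart.

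Groups followed the sample titles. Counts were filtered with filterByExpr (16465 kept, 40283 dropped), scaled by TMM (factors from 0.966 to 1.02) and tested with edgeR 4.0.16 in R 4.3.3 (glmQLFit, glmQLFTest, group as the only term, Benjamini-Hochberg adjustment over all genes tested). The threshold follows the study's methods. The common coefficient of variation between replicates was 0.153. Intervals for counts of 0 cover counting error only. On simulated counts for col1-ACLP against col1 (16465 genes), 141 of 200 genes changed 2-fold were recovered, with 3 false calls. All 18 replicate pairs differed by more than sampling noise (chi-square over its degrees of freedom between 7.22 and 19.5), so each library was counted.

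The members and lists were chosen with earlier results of these data known. Results for 2 genes of the pathway lists are not reported here, and the lists are counted without them. Named were all 10 genes, list genes called in any comparison, the 2 uncalled genes of highest FPKM per list, and for each called member the 3 genes of most similar pattern. Ppara, Ppard, Rxra, Acadm, Acot1 and untested list genes were named in addition. The element was searched around Ensembl canonical start sites of GENCODE vM39. Alternatives were RLE factors or library size alone, other filters, DESeq2 1.42.0, limma-voom (limma 3.58.1), pairs of groups, a replicate block, the adjusted p-value alone and each library left out. Same-numbered libraries did not deviate together (r from -0.0372 to 0.036), so the numbers were not taken as pairs.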

Additional observations from a re-analysis of the deposited data

Results flagged for a closer look

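Each gene was checked in each group of 4 libraries for a library whose gap to the nearest other exceeds Dixon's 95% critical value for the ratio of that gap to the group's range. Of 30 checks 4 passed, and chance alone passes about 1 in 20 where values vary freely. Plin2 on col1-ACLP had replicate 3 at 171.9 CPM, below 3 libraries that lie within 1 CPM of each other (ratio 0.881). Lpl on col1 had replicate 3 at 0.3946 CPM, with 13 counts against 65 to 67 in the others (ratio 0.843). Cd36 had all its counts on col1 in replicate 1 (0.2088 CPM, 8 counts) and all those on col1-ACLP in replicate 1 (0.03055 CPM, 1 count), each with a ratio of 1. With the other 3 libraries at 0 that ratio is 1 whatever the count, so these 2 cannot be read against the chance rate. The 3 genes passed no test between groups, and Cd36 was not tested.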

How the results depend on the processing

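Of 878 recomputed values, 854 kept their direction and their side of the threshold, 13 lost a call, 6 gained one and 5 changed sign. These values cover the tested genes of the 10 in each comparison, and pathway genes only in comparisons where they were called. A pathway gene could therefore lose a call here but not gain one, and uncalled pathway genes were not recomputed singly. The calls of Angptl4, Pdk4 and Acot2 on col1-ACLP and of Pdk4 on col1-ACLP+SB held under all 20 alternatives. The sign changed only where the value was near 0: Plin2 on col1-ACLP was -0.01525 with library size alone. Left-out libraries gave Acsl1 on col1-ACLP+SB from -0.1126 to 0.002557, and, between the groups with ACLP, Pdk4 from -0.08453 to 0.1812, Acot2 from -0.1485 to 0.001865 and Acadl from -0.01041 to 0.09631. With the adjusted p-value alone, called genes numbered 2953, 1504 and 243 in the 3 comparisons (819, 376 and 21 with the fold threshold), pathway genes 31, 20 and 3, and members on col1-ACLP+SB 5. Between the groups with ACLP, 46 genes were called with no filter and 39 with DESeq2, and leaving out a library gave 10 to 29 (10 without col1-ACLP replicate 4, 11 without col1-ACLP+SB replicate 4). With the replicate block 785, 357 and 17 genes were called, and no call of a member changed. Library size alone moved the calls on col1-ACLP to 362 higher and 480 lower (43% higher, against 52.5%). The cause of these changes was not tested. Depth limits Fabp4, Lpl and Cd36, which held at most 82 counts in a library.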
